A study of Mus musculus with 12 samples.

Results

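The Ly6 genes described here are Ly6i, Ly6a, Ly6c1, Ly6c2, Ly6d and Ly6e, small surface proteins encoded in the same gene cluster of the mouse. They were chosen by name, as members of the family of Ly6i, from the genes that stood out between Runx3Δ and WT cells in these same samples. Of the 6 genes, 3 (Ly6i, Ly6d and Ly6e) have a row of their own among the 35556 rows of the array, a row being 1 set of probes with 1 intensity per array. Ly6c1 and Ly6c2 have no row of their own and share 2 rows that are annotated to both, so those values cannot be assigned to either gene. In the annotation used here no row carries the symbol Ly6a alone or with another gene, and Ly6a was not analysed. The study lists Ly6a among its changed genes in CD11b+ DC, so the missing symbol does not show that the array lacks probes for it.

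The arrays hold RNA of mononuclear phagocytes sorted from the cecum of 6 to 8 week-old C57Bl/6 mice, male and female pooled, with sorted cells of 3 to 4 mice in each sample. There were 4 Runx3Δ and 3 WT samples of resident macrophages (RM), and 3 Runx3Δ and 2 WT samples of CD11b+ dendritic cells (DC). Runx3Δ mice (labelled Runx3 -/-) carry Runx3 fl/fl and CD11c-Cre, which removes exon 3 of the transcription factor gene Runx3 in cells that express CD11c, and the WT mice (labelled Runx3 +/+) were their littermates. All samples were gated as CD45+, CD11c+, MHCII+, CD11b+ and Ly6c-, RM being F4/80+ and CD11b+ DC F4/80-. The row of Runx3 averaged 9.95 ± 0.16 (log2, SD, n = 4) in Runx3Δ RM and 9.69 ± 0.19 (n = 3) in WT RM, and 10.04 ± 0.09 (n = 3) in Runx3Δ CD11b+ DC and 10.05 ± 0.09 (n = 2) in WT CD11b+ DC. A row of probes along the whole gene cannot show the loss of 1 exon and is no check of the genotype labels. The labelled cell types were borne out by their markers: of 10 macrophage markers, 9 had an adjusted p under 0.05 and were higher in RM than in CD11b+ DC in each genotype, and of 10 conventional DC markers 8 in Runx3Δ and 10 in WT cells were lower in RM. Over all rows, 7.85% in Runx3Δ and 6.07% in WT cells had such a p in either direction.

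Ly6 proteins are held on the outer cell membrane by a glycosylphosphatidylinositol (GPI) anchor and are built on the 3-fingered fold shared with the urokinase receptor. They are used widely to tell blood cells apart. Ly6C marks inflammatory monocytes, which enter the gut wall and lose it as they become macrophages, and Ly6A (Sca-1) marks blood stem cells and is induced by interferons in many cell types. Ly6D marks early B lineage cells and some epithelia, Ly6E is an interferon-induced protein of lymphocytes and many other cells, and Ly6I is found on myeloid cells.

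Ly6i was brighter in every Runx3Δ sample than in any WT sample of the same cell type. In RM its log2 level was 8.91, 9.94, 9.07 and 9.19 in Runx3Δ replicates 1 to 4, against 8.56, 5.74 and 6.88 in WT replicates 1 to 3. WT RM replicate 1 lay just below the dimmest Runx3Δ sample, while WT RM replicate 2 was by far the dimmest of the 12 arrays. In CD11b+ DC the log2 level was 8.91, 8.79 and 9.72 in Runx3Δ replicates 1 to 3, against 7.12 and 7.56 in WT replicates 1 and 2. All 3 Runx3Δ samples of CD11b+ DC thus stood above both WT samples.

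The mean of Ly6i was 9.28 ± 0.46 (SD, n = 4) in Runx3Δ RM and 7.06 ± 1.42 (n = 3) in WT RM. The difference was 2.22 on the log2 scale (SE 0.53, 95% confidence interval 1.05 to 3.39), a 4.65-fold higher level in Runx3Δ RM. In CD11b+ DC the mean was 9.14 ± 0.51 (n = 3) in Runx3Δ and 7.34 ± 0.31 (n = 2) in WT, a difference of 1.80 (SE 0.64, 95% confidence interval 0.40 to 3.20) or 3.48-fold. Ly6i was put forward because of this contrast, so these differences are given as a description and were not tested. Over all rows, 4.12% were higher in every Runx3Δ RM sample than in any WT RM sample and 13.1% were so in CD11b+ DC, a comparison of fewer arrays. In bulk RNA of sorted cells, a larger share of cells that express Ly6i and more Ly6i RNA per cell cannot be told apart.

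The size of the RM difference rested on 2 of the WT samples. Without WT RM replicate 2 the log2 difference was 1.56 (2.95-fold), and without WT RM replicate 1 it was 2.97 (7.84-fold). The sample labels number the litters, and the Runx3Δ sample was brighter than the WT sample of the same litter in all 3 litters that hold both samples of RM. The log2 difference within the litter was 0.35 (1.28-fold) in litter 1, 4.20 (18.4-fold) in litter 2 and 2.19 (4.57-fold) in litter 3. Litter 3 is the only one with both genotypes of CD11b+ DC, and there the difference was 1.23 (2.34-fold).

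**Figure D1:**
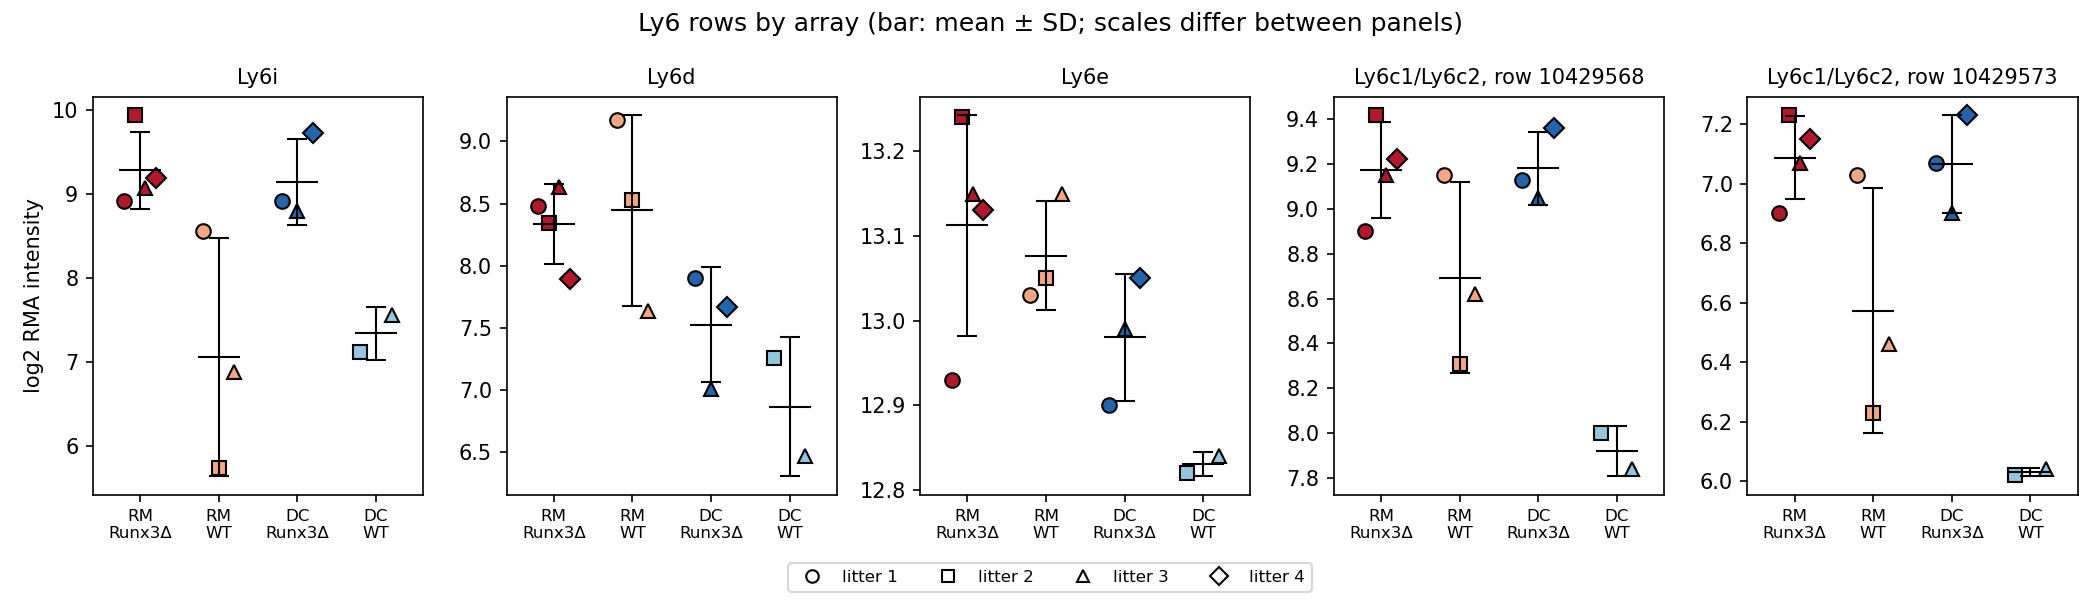
Log2 intensity (vertical axis) of Ly6i, Ly6d, Ly6e and the 2 rows shared by Ly6c1 and Ly6c2 in each of the 12 arrays, with a symbol for each litter, and the mean ± SD of each group. Ly6i lies between 8.79 and 9.94 in the Runx3Δ samples and between 5.74 and 8.56 in the WT samples, and Ly6e stays within 12.82 and 13.24 in all samples.

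Between the cell types Ly6i showed no difference that could be detected. RM minus CD11b+ DC was 0.14 on the log2 scale in Runx3Δ cells (SE 0.53, 95% confidence interval -1.03 to 1.31; limma, Benjamini-Hochberg adjusted p = 0.937) and -0.28 in WT cells (SE 0.64, 95% confidence interval -1.68 to 1.12; adjusted p = 0.914). The samples of RM and CD11b+ DC overlapped in each genotype. The intervals are wide, and they include differences of more than 2-fold in either direction in both genotypes. The adjusted p ranged from 0.833 to 0.993 in Runx3Δ and from 0.24 to 0.991 in WT cells over the alternatives tried. Without WT RM replicate 2 the WT difference turned to 0.38.

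Ly6c1 and Ly6c2 encode the near-identical proteins that antibodies to Ly6C recognise on monocytes, and cells stained by such an antibody were left out of every sample by the gate. The start sites of both genes are shown because the array cannot separate them, and because 1 of the 2 windows holds the letters of a RUNX motif. The windows run from 250 bases before to 50 bases after the start of each gene (RefSeq, GRCm38.p6, minus strand, 5′ to 3′), at chr15:75048788-75049087 for Ly6c1 and chr15:75111922-75112221 for Ly6c2. Capitals mark matches to the searched motifs.
Ly6c1: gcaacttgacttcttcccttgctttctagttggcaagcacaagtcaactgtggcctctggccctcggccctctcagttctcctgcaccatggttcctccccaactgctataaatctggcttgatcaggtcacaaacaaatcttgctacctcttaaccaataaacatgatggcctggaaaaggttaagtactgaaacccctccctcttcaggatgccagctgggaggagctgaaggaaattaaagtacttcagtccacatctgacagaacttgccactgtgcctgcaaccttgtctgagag
Ly6c2: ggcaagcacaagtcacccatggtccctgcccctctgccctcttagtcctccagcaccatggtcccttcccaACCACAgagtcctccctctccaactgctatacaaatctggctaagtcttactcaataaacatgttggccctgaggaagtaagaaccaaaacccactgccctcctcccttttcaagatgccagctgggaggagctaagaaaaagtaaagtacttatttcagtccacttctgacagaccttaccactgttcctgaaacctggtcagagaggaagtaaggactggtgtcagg
Aligned to each other, the windows are identical at 214 of 260 aligned bases (82.3%). Both strands were searched for TGTGGT and TGCGGT (RUNX), TTCNNNGAA (the GAS element of interferon-gamma signaling) and AANNGAAA (the core bound by interferon regulatory factors). The Ly6c2 window holds TGTGGT once, on the strand opposite to the one printed, and no other match was present in either window, nor was there any in the window at a second start site of Ly6c1. The second start site of Ly6c2 lies close by and its window contains the same match. TGTGGT is present in 16.8% of the 32851 RefSeq promoter windows, TGCGGT in 6.45%, TTCNNNGAA in 8.3% and AANNGAAA in 23.9%. A match is a run of letters, and binding was not measured in these files.

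On the first row shared by Ly6c1 and Ly6c2 (row 10429568) the log2 level in RM was 8.90, 9.42, 9.15 and 9.22 in Runx3Δ replicates 1 to 4, against 9.15, 8.31 and 8.62 in WT replicates 1 to 3. WT RM replicate 1, the WT sample with the most Ly6i, was again within the range of the Runx3Δ samples. In CD11b+ DC the level was 9.13, 9.05 and 9.36 in Runx3Δ replicates, against 8.00 and 7.84 in WT replicates, with no overlap. Of all rows, 13.1% were likewise higher in every Runx3Δ sample of CD11b+ DC. The difference Runx3Δ minus WT was 0.48 in RM (SE 0.19, 95% confidence interval 0.07 to 0.89) and 1.26 in CD11b+ DC (SE 0.22, 95% confidence interval 0.77 to 1.75), or 1.40-fold and 2.39-fold.

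The other shared row (row 10429573) had a similar pattern. Its log2 level was 6.90, 7.23, 7.07 and 7.15 in Runx3Δ RM, against 7.03, 6.23 and 6.46 in WT RM. In CD11b+ DC it was 7.07, 6.90 and 7.23 in Runx3Δ, against 6.02 and 6.04 in WT samples. The differences were 0.52 (SE 0.17) in RM and 1.03 (SE 0.20, 2.05-fold) in CD11b+ DC. These differences too are descriptions, since Ly6c1 and Ly6c2 were chosen with their values in this contrast known.

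The shared rows also followed Ly6i from sample to sample. Over the 12 arrays Pearson's r with Ly6i was 0.82 for the first row and 0.88 for the other, and after removal of the group means it was 0.93 and 0.96. These arrays share 4 groups and 4 litters, and probes of near-identical genes may bind the same RNA, so the rows are not independent measurements.

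Markers of Ly6C-high monocytes were set beside Ly6i and the shared rows, and they went in both directions. The mean log2 level of the 11 markers with a row (of 12 listed) was 7.61 to 8.15 in Runx3Δ RM and 7.41 to 8.06 in WT RM, and 7.98 to 8.61 in Runx3Δ CD11b+ DC and 8.48 to 8.60 in WT CD11b+ DC. The median difference of those markers was -0.10 in RM and -0.14 in CD11b+ DC, with 5 of 11 above 0 in each. Of the 3 with the highest signal, the chemokine receptor gene Ccr2 had a difference of -0.22 (SE 0.20) in RM and -0.41 (SE 0.24) in CD11b+ DC, Ms4a4c -0.10 (SE 0.24) and 0.23 (SE 0.29), and fibronectin Fn1 -0.25 (SE 0.52) and -2.02 (SE 0.62). Haptoglobin Hp, coagulation factor F10 and Plac8, chosen after their values were seen, ran with Ly6i in RM. Hp was 7.29 ± 0.82 in Runx3Δ RM (SD, n = 4) and 5.75 ± 1.27 in WT RM (n = 3), a difference of 1.54 (SE 0.59, adjusted p = 0.55). F10 differed by 1.31 in RM (SE 0.33, adjusted p = 0.283) and Plac8 by 0.80 (SE 0.27, adjusted p = 0.506). In CD11b+ DC the differences were 1.16 for Hp (SE 0.71), -0.20 for F10 (SE 0.39) and 0.66 for Plac8 (SE 0.33). In limma 0 of 11 passed the adjusted threshold in either cell type, where 0.0141% of all rows did in RM and 0% in CD11b+ DC. At an unadjusted p of 0.05, 3 of 11 passed in RM (Hp, F10 and Plac8, all higher in Runx3Δ) and 2 of 11 in CD11b+ DC (Fn1 and Vcan, both lower), where 7.96% and 6.74% of all rows did. Over the 12 arrays, r between Ly6i and the mean of the markers was 0.28, and after removal of the group means it was 0.51. For the first and the other shared row, r with that mean over the 12 arrays was -0.09 and -0.04. Within the 7 RM samples, r between Ly6i and the mean of the markers was 0.65 (Spearman's rho 0.71; 0.91 without the 2 farthest samples). The part of monocytes in the Ly6i and Ly6c values was not tested.

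Between the cell types, the first shared row differed by -0.01 in Runx3Δ (SE 0.19, adjusted p = 0.99) and by 0.77 in WT cells (SE 0.22, adjusted p = 0.0726, limma). The other row differed by 0.02 in Runx3Δ (SE 0.17, adjusted p = 0.976) and by 0.54 in WT cells (SE 0.20, adjusted p = 0.181). All WT RM samples were above both WT CD11b+ DC samples on both rows, as were 16.1% of all rows. The first row passed the threshold in WT cells only when WT RM replicate 2 was left out (difference 0.96, adjusted p = 0.0241), and the difference between the genotypes was not tested.

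Ly6e had a high signal in every sample and varied little. In RM its log2 level was 12.93, 13.24, 13.15 and 13.13 in Runx3Δ, against 13.03, 13.05 and 13.15 in WT replicates. In CD11b+ DC it was 12.90, 12.99 and 13.05 in Runx3Δ, against 12.82 and 12.84 in WT replicates. The ranges overlapped in RM and did not in CD11b+ DC, where 13.1% of all rows were likewise higher in every Runx3Δ sample. The difference Runx3Δ minus WT was 0.04 in RM (SE 0.09, 95% confidence interval -0.16 to 0.23) and 0.15 in CD11b+ DC (SE 0.11, 95% confidence interval -0.09 to 0.39), or 1.03-fold and 1.11-fold. RM minus CD11b+ DC was 0.13 in Runx3Δ (SE 0.09, adjusted p = 0.51) and 0.25 in WT cells (SE 0.11, adjusted p = 0.263, limma), and neither passed.

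Ly6d was higher in RM than in CD11b+ DC in WT cells, and its genotypes overlapped in both cell types. In RM its log2 level was 8.48, 8.34, 8.63 and 7.89 in Runx3Δ, against 9.17, 8.53 and 7.64 in WT replicates. In CD11b+ DC it was 7.90, 7.01 and 7.67 in Runx3Δ, against 7.26 and 6.47 in WT replicates. The WT RM samples alone spanned the whole range of the Runx3Δ RM samples. The difference Runx3Δ minus WT was -0.11 in RM (SE 0.35, 95% confidence interval -0.88 to 0.66) and 0.66 in CD11b+ DC (SE 0.42, 95% confidence interval -0.26 to 1.59). By litter, the RM difference was -0.69, -0.20 and 0.99 in litters 1 to 3.

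In WT cells Ly6d was higher in RM than in CD11b+ DC by 1.58 on the log2 scale (SE 0.42, 3-fold), with an adjusted p of 0.0498 in limma, just under the threshold of 0.05. All 3 WT RM samples were above both WT CD11b+ DC samples, as was the case for 16.1% of all rows. In Runx3Δ cells the difference was 0.81 (SE 0.35, 1.75-fold), the groups overlapped by a small margin, and the adjusted p was 0.238. Ly6d was thus the only 1 of the 3 members to pass in WT cells, where 6.07% of all rows passed, and 0 of 3 passed in Runx3Δ cells, where 7.85% of all rows did. At an unadjusted p of 0.05, 2 of 3 passed in WT and 1 of 3 in Runx3Δ cells by limma, and 2 and 0 by the unmoderated test of the methods. Of all rows, 17.2% passed in WT and 18.8% in Runx3Δ cells at that threshold by limma, and 16.5% and 18.3% by the test of the methods. The call for Ly6d in WT cells was lost in 14 of 21 alternatives, with a difference of 1.19 to 1.99 and an adjusted p of 0.0144 to 0.359. Without WT CD11b+ DC replicate 2 the difference was 1.19 (adjusted p = 0.359), and without WT RM replicate 1 it was 1.22 (adjusted p = 0.099).

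**Figure D2:**
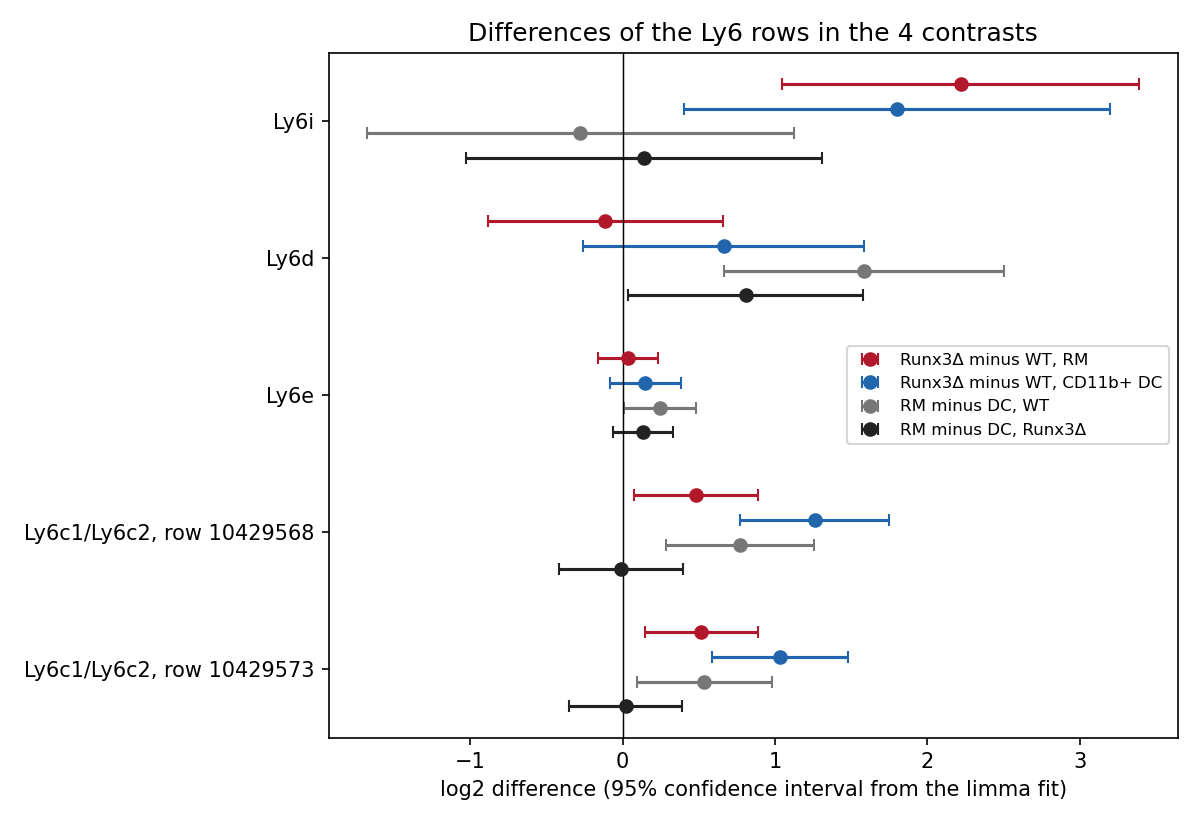
Log2 difference (horizontal axis) of each row in the 4 contrasts, with its 95% confidence interval from the limma fit. For Runx3Δ minus WT the intervals of Ly6i are 1.05 to 3.39 in RM and 0.40 to 3.20 in CD11b+ DC. Ly6i was put forward because of this contrast, so those intervals are a description and no test. In both cell type contrasts its intervals span 0.

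Markers of B and plasma cells moved with Ly6d. Of the 10 markers listed, 9 had a row, and all 9 were higher in RM than in CD11b+ DC in both genotypes. The median difference was 1.12 in Runx3Δ and 1.14 in WT cells. In limma 4 of 9 passed the adjusted threshold in Runx3Δ (7.85% of all rows) and 2 of 9 in WT cells (6.07% of all rows). The mean log2 level of the 9 markers was 8.70 to 9.19 in Runx3Δ RM and 7.65 to 8.40 in Runx3Δ CD11b+ DC. In WT cells it was 8.40 to 9.69 in RM and 7.47 to 8.20 in CD11b+ DC. Those with the highest signal were Cd79a, part of the B cell receptor complex, at 10.15 ± 0.40 in Runx3Δ RM (SD, n = 4) and 8.83 ± 0.30 in Runx3Δ CD11b+ DC (n = 3), the immunoglobulin joining chain Jchain, and Ms4a1, which encodes CD20. Cd79a was higher in RM by 1.32 in Runx3Δ (SE 0.30, adjusted p = 0.0222) and by 1.22 in WT cells (SE 0.36, adjusted p = 0.0835).

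The 5 genes with the pattern most like that of Ly6d over the 12 arrays, among 12211 genes, were Pou2af1 (Pearson's r = 0.94), Neil1, Lax1, Pax5 and Cmah. Pou2af1 and Pax5 encode regulators of B cells and stand in the marker list. Within the 7 RM samples, r between Ly6d and the mean of the markers was 0.89 (Spearman's rho 0.75). It was 0.49 without the 2 samples farthest from the median of the marker mean. Leaving out those samples narrows the range of the marker mean, so the lower r is no test of the relation. After removal of the group means it was 0.91 over the 12 arrays. Markers of plasmacytoid DC (7 of 8 with a row) had an r of 0.70 with Ly6d over the 12 arrays, against 0.94 for the B and plasma cell markers. Their mean log2 level was 7.31 to 7.62 in WT RM and 6.91 to 6.98 in WT CD11b+ DC. In Runx3Δ cells it was 7.04 to 7.30 in RM and 7.19 to 7.44 in CD11b+ DC. The part of B lineage or plasmacytoid DC RNA in the Ly6d values was not tested.

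**Figure D3:**
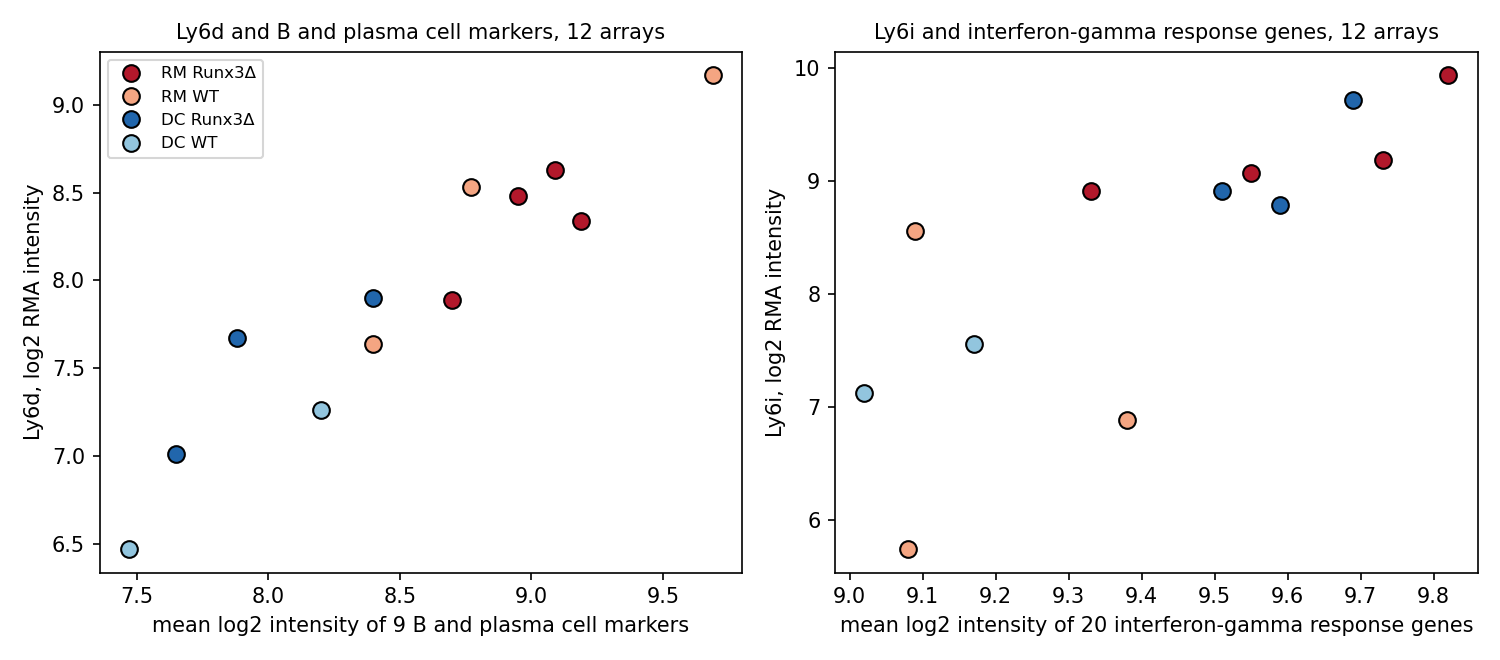
Left, log2 level of Ly6d (vertical) against the mean log2 level of 9 B and plasma cell markers (horizontal) in each array. Right, Ly6i against the mean of 20 genes of the interferon-gamma response. The WT RM sample with the most Ly6d (9.17) has the highest marker mean (9.69), and the WT CD11b+ DC sample with the least Ly6d (6.47) has the lowest (7.47).

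The 5 genes most like Ly6i were Mif (Pearson's r = 0.94), Slc7a11 (0.94), Cxcl9 (0.94), Cd300lf (0.92) and Pgk1 (0.92). Mif encodes a macrophage cytokine, Slc7a11 the cystine transporter, Cxcl9 a chemokine induced by interferon-gamma that attracts T cells, Cd300lf an inhibitory receptor of myeloid cells, and Pgk1 an enzyme of glycolysis. Cxcl9 averaged 12.45 ± 0.20 (log2) in Runx3Δ RM (SD, n = 4) and 11.19 ± 0.69 in WT RM (n = 3), and of 12.11 ± 0.10 in Runx3Δ CD11b+ DC (n = 3) and 11.03 ± 0.42 in WT CD11b+ DC (n = 2). Mif had 10.48 ± 0.21 in Runx3Δ RM and 9.78 ± 0.36 in WT RM, and 10.64 ± 0.18 in Runx3Δ and 10.03 ± 0.02 in WT CD11b+ DC. This likeness includes the contrast by which Ly6i was chosen. In the same order, Ly6e stood at rank 2210 (r = 0.31) and Ly6d at rank 3825 (r = 0.17), so neither Ly6d nor Ly6e followed Ly6i closely across these arrays.

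Genes of the interferon-gamma response were mostly higher in Runx3Δ cells, and none passed the adjusted threshold. Of the 25 genes listed, 20 had a row. In either cell type 0 of 20 were called, where 0.0141% of all rows in RM and 0% in CD11b+ DC were. In RM, 18 of 20 were above 0 with a median difference of 0.41 (0.03 over all rows), and in CD11b+ DC 18 of 20 with a median of 0.52 (0.01 over all rows). At an unadjusted p of 0.05 in limma, 11 of 20 passed in RM, where 7.96% of all rows did, and 10 of 20 in CD11b+ DC, where 6.74% did. The list was set with earlier results of these data known, and the paper reports Cxcl9, Batf2 and Nlrc5 as higher in Runx3Δ cells. The counts are therefore a description and no test of the list. Cxcl9 differed by 1.27 in RM (SE 0.27, adjusted p = 0.212) and by 1.08 in CD11b+ DC (SE 0.32, adjusted p = 0.514). Of the other genes with a high signal, the checkpoint ligand Cd274 differed by 0.07 (SE 0.15) and 0.24 (SE 0.18) and the chemokine Cxcl10 by -0.39 (SE 0.19) and -0.03 (SE 0.23). The mean level of the list was 9.33 to 9.82 in Runx3Δ RM and 9.08 to 9.38 in WT RM, and 9.51 to 9.69 in Runx3Δ and 9.02 to 9.17 in WT CD11b+ DC. Within the 7 RM samples its r with Ly6i was 0.70 (rho 0.89; 0.48 without the 2 farthest samples), and over the 12 arrays without the group means it was 0.28. For Ly6e that last value was 0.91, and the genes most like Ly6e (Gbp7, r = 0.99, then Mlf2, Sertad3, Gbp11 and Lap3) include guanylate-binding proteins, a family induced by interferon.

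The type I interferon response ran the other way in RM. Of 25 genes 23 had a row, and all 23 were below 0 in Runx3Δ RM relative to WT RM, with a median of -0.45 (0.03 over all rows). In limma 15 of 23 passed an unadjusted p of 0.05, where 7.96% of all rows did, and 0 passed the adjusted threshold, where 0.0141% did. This list too was set with earlier results of these data known, and the paper reports Ifit3, Ifih1 and Mx2 as lower in Runx3Δ cells. Its counts are likewise a description and no test of the list. In CD11b+ DC the median was -0.01 (0.01 over all rows), with 10 of 23 above 0. There 0 of 23 passed the adjusted threshold, as did 0% of all rows. At an unadjusted p of 0.05, 6 of 23 passed, where 6.74% of all rows did. Of these 6, 4 were lower in Runx3Δ by 1.5-fold or more and 0 were higher by as much. Ifih1, a sensor of viral RNA, differed by -0.75 in RM (SE 0.18, adjusted p = 0.274) and by -0.82 in CD11b+ DC (SE 0.22, adjusted p = 0.44). Oasl1 differed by -0.76 (SE 0.25) and -0.91 (SE 0.30), and Trim30a by -0.33 (SE 0.13) and -0.01 (SE 0.15). Genes of GPI anchor synthesis, on which Ly6 proteins depend for their place on the membrane, were listed too, 26 of 27 with a row. Their median difference was -0.06 in RM and -0.04 in CD11b+ DC. None passed the adjusted threshold in either, where 0.0141% and 0% of all rows did. At an unadjusted p of 0.05 it was 2 and 1 of 26 in limma, against 7.96% and 6.74% of all rows. Pigt, a subunit of the enzyme that attaches the anchor, differed by -0.07 (SE 0.11) and -0.03 (SE 0.13).

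Markers of other cells were also set beside Ly6i. The mean log2 level of 11 neutrophil markers was 5.17 to 5.26 in Runx3Δ RM and 4.94 to 5.30 in WT RM, and 5.06 to 5.23 in Runx3Δ and 4.95 to 4.96 in WT CD11b+ DC. Of these genes Csf3r is also expressed by macrophages. The highest mean of the WT samples was that of WT RM replicate 1 (5.30), which also had the most Ly6i of the WT samples. Over the 12 arrays the mean of these markers had an r of 0.71 with Ly6i and of 0.77 and 0.82 with the shared Ly6c rows, near the 0.78 of the interferon-gamma list with each. Within the 7 RM samples its r with Ly6i was 0.83 (rho 0.32), and it was -0.91 without the 2 samples farthest from the median. Leaving out those samples narrows the range of the marker mean, so this change is no test of the relation. After removal of the group means, r with Ly6i was 0.66 over the 12 arrays. Markers of T and NK cells (13 of 14 with a row) ranged from 6.41 to 7.01 in Runx3Δ RM and from 6.01 to 6.52 in WT RM, and from 6.38 to 6.49 in Runx3Δ and from 6.23 to 6.27 in WT CD11b+ DC. The brightest of them, Cd4 and Il7r, averaged 11.6 and 9.9 in WT RM, against 7.1 for Cd3e and 4.5 for Cd3d. The list may therefore not measure T and NK cells alone. The mean of the T and NK cell markers had an r of 0.64 with Ly6i over the 12 arrays, and of 0.42 after removal of the group means. Within the RM samples it was 0.68 (rho 0.64, and r 0.49 without the 2 farthest samples). Endothelial markers, cells in which Ly6c1 and Ly6a are abundant, ranged from 5.81 to 5.96 in Runx3Δ RM and from 5.71 to 5.85 in WT RM, and from 5.71 to 5.88 in Runx3Δ and from 5.70 to 6.13 in WT CD11b+ DC. The part of these cells in the Ly6 values was not tested.

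Other genes of the Ly6 and urokinase receptor family were tested between the genotypes. The members had been set apart from this list with earlier results of these data known. The counts therefore hold for the remaining genes only. Of 41 genes 37 had a row, and 22 of these had a mean log2 level below 5, near or under the median of the arrays (5.33 to 5.52). In limma 0 of 37 passed in RM, where 0.0141% of all rows did (5 rows), and 0 of 37 in CD11b+ DC, where 0% did (0 rows). At an unadjusted p of 0.05, 1 of 37 passed in RM and 3 of 37 in CD11b+ DC by limma, and 2 and 2 by the test of the methods, against 7.96% and 6.74% of all rows by limma and 7.97% and 6.84% by the test of the methods. After the same adjustment, the test of the methods left 0 of all rows in either contrast. The median difference was 0.09 in both cell types, with 27 of 37 above 0 in RM and 32 of 37 in CD11b+ DC.

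The largest differences of that group were those of Lypd8 and Cd59a. Lypd8, a protein that colonic epithelium secretes onto flagellated bacteria, averaged 7.06 ± 0.50 in Runx3Δ RM (SD, n = 4) and 6.41 ± 1.08 in WT RM (n = 3), and of 6.56 ± 1.06 in Runx3Δ CD11b+ DC (n = 3) and 4.89 ± 0.27 in WT CD11b+ DC (n = 2). Its difference was 0.65 in RM (SE 0.54, adjusted p = 0.808) and 1.67 in CD11b+ DC (SE 0.64, adjusted p = 0.651). Epithelial markers had a median difference of 0.21 in RM and 0.28 in CD11b+ DC, with a mean level of 5.35 to 6.04 in Runx3Δ RM, 5.39 to 5.79 in WT RM, 5.68 to 6.13 in Runx3Δ CD11b+ DC and 5.57 to 5.91 in WT CD11b+ DC. Cd59a, an inhibitor of complement lysis, had 4.44 ± 0.18 in Runx3Δ RM and 5.55 ± 0.77 in WT RM, a difference of -1.10 (SE 0.31, adjusted p = 0.372). In CD11b+ DC its difference was -0.42 (SE 0.37, adjusted p = 0.898).

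The remaining genes named by their p were small in effect or dim. Lynx1, a modulator of nicotinic receptors, differed by 0.31 in RM (SE 0.14) and 0.05 in CD11b+ DC (SE 0.17), Lypd2 by 0.29 (SE 0.15) and 0.14 (SE 0.18), and Ly6g6d by 0.25 (SE 0.12) and 0.29 (SE 0.14). Ly6a2 differed by 0.19 (SE 0.12) and 0.43 (SE 0.14), Ly6g2 by 0.13 (SE 0.16) and 0.44 (SE 0.19), and Tex101 by -0.12 (SE 0.09) and 0.23 (SE 0.10), all 3 at mean levels between 3.75 and 4.04. Adjusted p was 0.552 or higher for each of these in both contrasts.

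**Figure D4:**
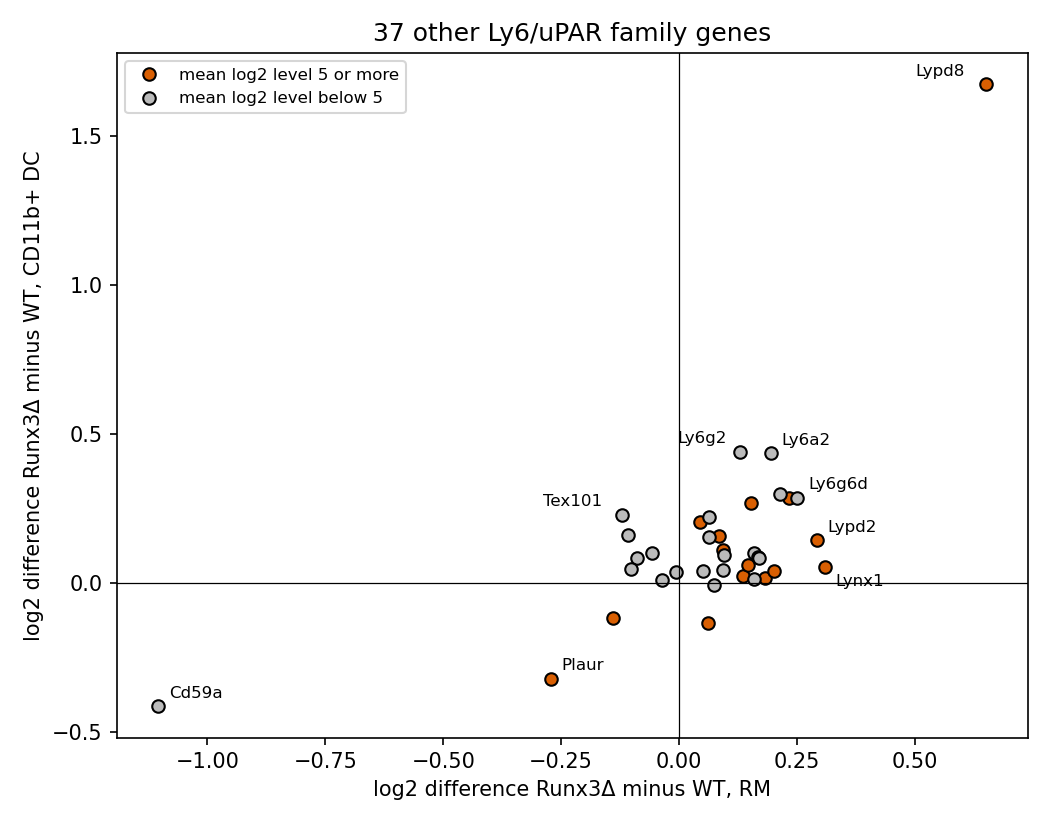
Log2 difference Runx3Δ minus WT in CD11b+ DC (vertical) against that in RM (horizontal) for 37 other genes of the family, coloured by mean level. Most lie near 0, and Lypd8 (0.65 in RM and 1.67 in CD11b+ DC) and Cd59a (-1.10 and -0.42) stand farthest out without passing the adjusted threshold.

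Plaur, the urokinase receptor itself, was higher in RM than in CD11b+ DC in Runx3Δ cells. In Runx3Δ cells its log2 level was 11.09, 11.31, 11.25 and 11.36 in RM, against 10.20, 10.70 and 10.78 in CD11b+ DC. In WT cells it was 11.38, 11.63 and 11.56 in RM, against 11.09 and 10.67 in CD11b+ DC. RM were above CD11b+ DC in every sample of the same genotype. In WT cells 16.1% of all rows were so, and the share in Runx3Δ cells was not computed. The difference RM minus CD11b+ DC was 0.70 in Runx3Δ (SE 0.15, 1.62-fold, limma adjusted p = 0.0167) and 0.65 in WT cells (SE 0.18, 1.56-fold, adjusted p = 0.0676). The Runx3Δ call was lost without Runx3Δ CD11b+ DC replicate 1, the sample with the least Plaur (difference 0.52, adjusted p = 0.0575). Between genotypes Plaur differed by -0.27 in RM (SE 0.15, adjusted p = 0.706) and by -0.32 in CD11b+ DC (SE 0.18, adjusted p = 0.791). In the contrasts of cell types, Plaur was the only one of the 37 past the threshold in Runx3Δ cells and 0 of 37 passed in WT cells, while 7.85% and 6.07% of all rows did. At an unadjusted p of 0.05 it was 3 and 4 of 37, against 18.8% and 17.2% of all rows. By the test of the methods, adjusted, it was 1 and 1 of 37, against 6.02% and 4.63% of all rows. The gene in Runx3Δ cells was Plaur (adjusted p = 0.0452). In WT cells it was Tex101 (adjusted p = 0.044), at a mean level of 4.04, and Plaur did not pass there (adjusted p = 0.122).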

How the data were processed

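The deposited values are log2 intensities on 12 arrays, which the authors made in Partek by RMA with a GC correction (build mm9 in the submitters' processing notes). They were used as deposited; array medians were 5.33 to 5.52, and the number of arrays limits the precision. The methods name an exon array and the platform record a gene-level mouse array, whose annotation named the rows: 21789 rows have 1 gene symbol, 1621 several and 12146 none. For a gene with several rows, the row with the highest mean was taken. The 4 groups were fitted with limma 3.58.1 (R 4.3.3; statmod 1.5.0 for the random block), two-sided, with Benjamini-Hochberg adjustment over 35556 rows at a threshold of 0.05. The members and lists were chosen with earlier results of these data known, so Runx3Δ minus WT was not tested for members. Named genes were the members, family genes past the threshold or with the 4 smallest p per genotype contrast, up to 3 brightest genes of the other lists, and the 5 genes of highest r with Ly6i (mean level 5 or more); those of Ly6d and Ly6e were added after the values were seen. Replicates are the samples numbered in the labels, each a pool of mice. Litter numbers come from the labels: 13 pairs of samples with the same number in different groups had a median correlation of 0.0958 (-0.0412 to 0.358) after removal of the group means, and 40 pairs with different numbers -0.0347 (-0.257 to 0.203). The fit was checked on simulated data. Motifs were searched with Python 3.11.15 and Biopython 1.88, with RefSeq promoters for 2 of the 6 genes, and figures drawn with matplotlib 3.10.9. Alternatives were the litter as a fixed or random block, quantile normalization, median centring, a filter at a log2 level of 5, the mean of rows per gene, rows with 1 symbol, the one-way ANOVA of the methods (unmoderated), an intensity trend, 1 cell type alone, and each sample left out.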

Additional observations from a re-analysis of the deposited data

How the results depend on the processing

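The differences Runx3Δ minus WT of Ly6i kept their direction in all 22 alternatives, at 1.56 to 2.97 in RM and 1.34 to 2.02 in CD11b+ DC. Ly6i has 1 row and each group is fitted by its own mean. The filter, the choice of rows, the ANOVA, the trend and 1 cell type alone therefore could not change these differences. Neither could leaving out a sample of the other cell type. Those settings are no check of the direction, and Ly6i was put forward because of this contrast. With the litter as a fixed replicate block the differences were 2.11 and 1.34. Of the 3 members, 1 passed in WT RM minus CD11b+ DC, and 0 passed with the fixed replicate block (Ly6d 1.40, adjusted p = 0.0568), with the one-way ANOVA (adjusted p = 0.128) and with the intensity trend (adjusted p = 0.057), and 0 to 1 with 1 sample left out. The fixed block gave 8 called rows against 5 for Runx3Δ minus WT RM and otherwise kept every count of called rows within 1.5 times. Differences near 0 changed sign: the first shared Ly6c row in Runx3Δ RM minus CD11b+ DC was 0.01 with the fixed replicate block, 0.01 after quantile normalization and -0.09 to 0.08 with samples left out, and the other -0.02 after median centring and -0.06 to 0.10. Ly6i ranged from -1.03 to 0.38 in WT and from -0.08 to 0.43 in Runx3Δ cells with samples left out. The other family genes past the threshold in WT cells numbered 0 to 2 (Plaur and Tex101 among rows with 1 symbol, where fewer rows are tested), and 0 in both genotype contrasts throughout. Leaving out a WT CD11b+ DC sample leaves 1 array there, assumed to vary like the other groups. The cause of the other changes was not tested.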
